A study of Rattus norvegicus with 42 samples.

Results

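The peaks described here are the transcription start site (TSS) peaks of the rat major histocompatibility complex region, taken as every peak of the deposited peak table on chromosome 20 of the Rnor_6.0 assembly whose 0-based start lies from 1000000 to 6000000, on either strand. The rule found 84 of the 9971 peaks of the table. They were numbered M1 to M84 in order of start, from position 1984668 to position 5933440, and 39 lay on the plus strand and 45 on the minus strand. Their width ran from 22 to 2592 nt with a median of 184 nt. One of them, M53, the narrowest and on the minus strand, was present in some animals of a phase and not in others. It was set apart and described without a test, which left 83. The peaks were described by position, strand and width only, without gene names or sequence.

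The study measured capped RNA 5′ ends by nAnT-iCAGE, a cap analysis of gene expression in which each sequenced tag marks the position where a transcript begins. Soleus, a slow postural muscle, and extensor digitorum longus (EDL), a fast muscle, came from 21 mature Wistar rats, an outbred stock. The library names hold 21 animal numbers, each on 1 soleus and 1 EDL library, and both libraries of a number were taken as 1 rat. Active control rats were compared with rats hung by the tail for 1, 3 or 7 days (D1, D3, D7) and with rats returned to free movement for 1, 3 or 7 days after 7 days of unloading (R1, R3, R7), 3 rats in each phase. Whole muscle was used, so fewer cells of a type and less RNA per cell cannot be told apart, and no marker gene could be read from peaks without names.

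The major histocompatibility complex holds the genes of the class I and class II molecules, which show peptides from inside and from outside the cell to T lymphocytes, and the genes that load these peptides. In the rat it is called RT1. Between these gene groups lies the class III segment, with genes of complement, cytokines of the tumour necrosis factor family and inducible heat shock proteins of the Hsp70 type. The region carries many gene copies of near-identical sequence and differs strongly between individuals.

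Levels are given as tags per 1000000 tags of the peak table (CPM). The table held from 3637762 to 21116882 tags per soleus library and from 1696341 to 22116123 per EDL library, so a single tag was worth most in the shallowest EDL library. Differences are edgeR quasi-likelihood log2 fold changes with their standard error (SE). A call needed an adjusted p below 0.05, over all tested peaks of the table, and a level more than 2.38-fold higher or lower. In the test of differences between animals, given below, the adjusted p alone was used. All control libraries carried lane 1 in their names and all R1 libraries lane 4, in both muscles, and of the other libraries a soleus D1 library (U24) shared the lane of the controls. Lane and phase nearly coincided for the controls and R1, and a fit with the lane as a block is given below. The low-count filter left 81 of the 83 peaks in soleus, 73 in EDL and 82 over both muscles.

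Some of the peaks had tags that matched those of a second place in the region. M8 (chr20:2699756-2701913, minus strand) and M48 (chr20:4877374-4879965, minus strand) had start patterns with a cosine of 1.0 and collected 154166 and 155901 tags over the 42 libraries. Their share of the joint tags did not vary between libraries beyond counting error (chi-square 34.5, 41 degrees of freedom, p = 0.752). The summits of M8 and M48 were 2177964 nt apart, and so were those of the small plus-strand peaks inside their spans, M9 with M49 and M10 with M50. The start patterns of these small peaks matched less closely, with cosines of 0.790 and 0.866 at that distance, so by the cosine they were not taken as copies. Their share of the joint tags did not vary beyond counting error either (chi-square p = 0.613 and 0.236). From 72.2% to 79.9% of their tags lay at shared positions. With 234 to 262 tags each, whether they are copies was not settled. How reads were divided between copies was not tested, so the level of each copy is uncertain, and M8 and M48 count as a single measurement.

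The same held for 4 minus-strand peaks of about equal size, M6, M7, M35 and M40, with 5316, 5279, 5215 and 5200 tags. It also held for M28 with M72, which had 2686 and 2765 tags, and for M45 with M71, which had 763 and 739 tags. In all of these sets the tags of the copies rose and fell together from library to library.

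**Figure D1:**
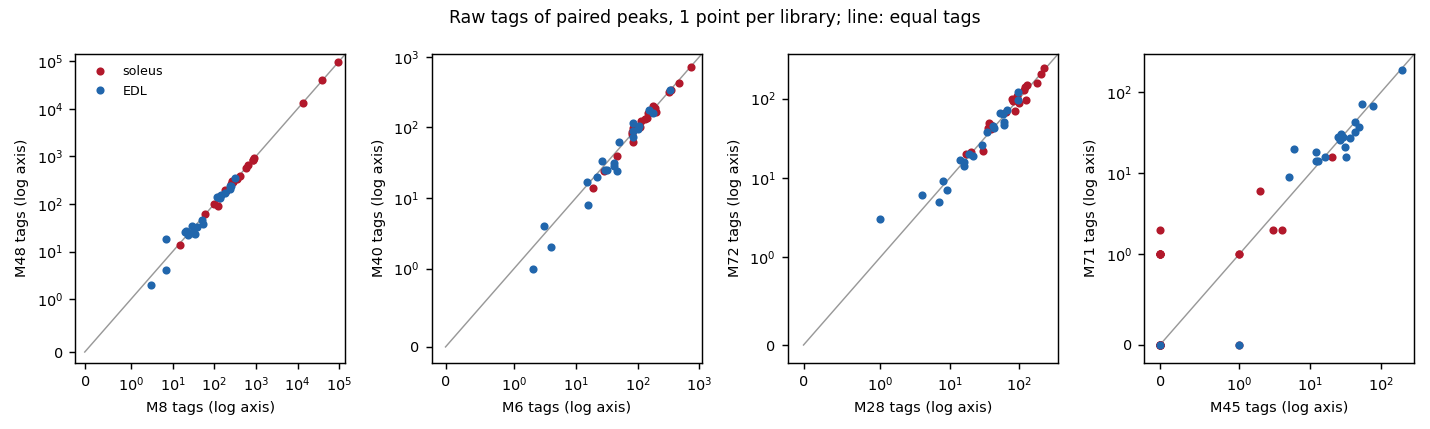
Raw tags of 4 pairs of peaks with matching start patterns, 1 point for each of the 42 libraries, soleus in red and EDL in blue, on log axes that are linear below 1 tag. The grey line marks equal tags, and the points lie along it from a few tags up to the soleus R1 libraries of M8 and M48.

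The level of the region was dominated by few peaks. The mean over 42 libraries was 281.9 CPM for M48, 279 CPM for M8 and 225 CPM for M81 (chr20:5723758-5723963, minus strand), against a median of 9.31 CPM over the 83 peaks and a lowest mean of 0.43 CPM. The order of M48 and M8 was set by the R1 soleus libraries, whereas M81 was high in every library. M81 ran from 138 through a median of 221 to 327 CPM in soleus and from 112 through 236 to 374 CPM in EDL. M81 was called by edgeR in none of the comparisons. Between the muscles its adjusted p was 0.00550, with a log2 difference of -0.40 that was below the fold threshold, and DESeq2 called its animal term (adjusted p = 0.00902).

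The other peaks among the 10 highest were M75, M20, M18, M77, M22, M21 and M16, with means from 36.4 to 77.9 CPM. M16 and M77 stayed within narrow bounds, from 25.04 to 56.7 CPM and from 28.2 to 65.5 CPM over the soleus libraries. M21 (chr20:3677464-3677614, plus strand) was the most uneven of them. Its soleus values ran from 2.83 to 130.1 CPM and its EDL values from 1.22 to 514 CPM, the latter in the R3 library of animal U4, while the other EDL libraries of that phase held 19.3 and 5.77 CPM. M21 was called in no comparison.

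Counting the whole region, the 83 peaks summed to 1245 to 1730 CPM in the soleus controls and to 4412 to 17012 CPM in the soleus R1 libraries. Without M8 and M48 the sums were 1133 to 1648 CPM and 1973 to 2124 CPM, so the R1 libraries stayed above all controls. This was not particular to R1: without the pair the soleus R3 sums, 1659 to 1796 CPM, also lay above all controls. Those of R7 ran from 984 to 2156 CPM. In CPM, 38.7% of all peaks of the table had every soleus R1 library above every control. Whether the region without the pair rose more than other peaks was not tested. In EDL the sums over the 83 peaks were 748 to 1063 CPM in the controls and 867 to 1451 CPM at R1, and these ranges overlapped. The larger part of the rise of the summed level at R1 lay in the M8 and M48 pair.

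The comparison of each phase with control asked which starts of the region changed with unloading and with return to load. In soleus, R1 stood out among the phases: 24 of the 81 tested peaks were called, 29.6%, beside 23.3% of all tested peaks of the table. Of these, 20 were higher at R1 and 4 lower, beside 14.7% and 8.59% of all tested peaks in those directions. The median log2 fold change was 0.11 over the tested peaks of the region and 0.05 over all tested peaks. All 3 R1 libraries lay above all 3 controls for 35 of the 83 peaks, beside 38.7% of all peaks. With the table sums as the only scale, 26 peaks were higher and none lower, beside 19% and 4.64% of all tested peaks, and the median of all tested peaks moved from 0.05 to 0.33.

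Of the 20 peaks higher at R1, 19 were called in each fit without 1 library, and M70 lost its call without control U6 (adjusted p = 0.0572). Among the 20, M9, M10, M49, M50, M54, M56 and M57 passed the low-count filter through their R1 libraries. M46 passed it through its R1 and R7 libraries. The calls of all these peaks, also those without 1 library, are a description. With the lane as a block over all 42 libraries no peak of the region was called in any comparison with control, and 9 of all tested peaks were called at R1 in soleus. In that fit 9 peaks of the region had an unadjusted p below 0.05 at R1, beside 7.72% of all tested peaks. Of the 20 peaks 19 were tested over both muscles, and with the block 8 had a lower value than over the same 42 libraries without the lane and 11 a higher one. M8, M48 and M52 had log2 fold changes of 6.92, 7.09 and 10.05 there, each with an adjusted p of 0.0671, against 5.78, 5.84 and 5.28 without the lane. M55 and M30 had 0.47 and 0.53 with the block and 1.67 and 1.90 without it. The other peaks with lower values in the block were M57 (2.83 against 5.6025), M56 (1.54 against 3.56), M61 (1.45 against 2.59), M69 (1.49 against 1.73), M73 (0.92 against 1.54) and M80 (0.92 against 1.83). Those with higher values were M10 (13.28 against 5.87), M49 (13.17 against 5.92), M50 (12.3 against 4.18), M54 (10.28 against 9.37), M46 (7.75 against 7.10), M70 (2.94 against 2.80), M76 (2.58 against 1.60) and M47 (1.70 against 1.49). Apart from M8, M48 and M52, the 19 peaks had adjusted p from 0.339 to 1.0 in the block.

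The other soleus phases called few peaks of the region. At D1 4 peaks were called (1.97% of all tested peaks), at D3 1 (0.732%), at D7 none (0.122%), at R3 2 (1.66%) and at R7 5 (4.19%). At D7, 11 of the 81 peaks had an unadjusted p below 0.05 in edgeR, beside 11.1% of all tested peaks, and DESeq2 called 2, beside 1.43% of all peaks to which it gave an adjusted p. The small counts turned on single libraries. At D1 the count was 1 without U24, 0 without U25, 2 without control U6 and 1 without control U8. At R3 it was 0 without U4, without U16 or without any one of the controls. At R7 it was 1 without control U6 or R7 animal U12, 2 without control U7 or R7 animal U13, and 3 without control U8.

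Set against D7, the state just before reloading, 25 peaks were called at R1 (23.2% of all tested peaks), 22 higher and 3 lower, and 18 of the 20 peaks that rose against control were among the higher. Both comparisons share the R1 libraries. The peaks higher against D7 and not against control were M18, M31, M34 and M51. Of the 6 fits without 1 library, M31 and M34 kept this call in 1 (adjusted p up to 0.119 and 0.153 in the others), M18 in 4 and M51 in 5. The peaks lower against D7 were M11, M20 and M74. M11 and M34 were named after their values were seen.

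In EDL 3 of the 73 tested peaks were called at D1 (3.08% of all tested peaks), 1 at D3 (1.26%) and 1 at D7 (1.09%). The D1 count was 1 without control U6, control U8 or U25, and 5 without U26. The D3 count was 2 without U11 and 0 without any other of the libraries compared. None was called by edgeR at R1, R3 or R7, where 0.0% of all tested peaks were called. At an unadjusted p below 0.05 there were 6, 14 and 3 peaks in these phases, beside 9.62%, 13.9% and 4.37% of all tested peaks. DESeq2 called 0, 3 and 0, beside 0.58%, 1.0% and 0.0107% of all peaks to which it gave an adjusted p. Without EDL R3 animal U5, edgeR called 2 at R3.

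**Figure D2:**
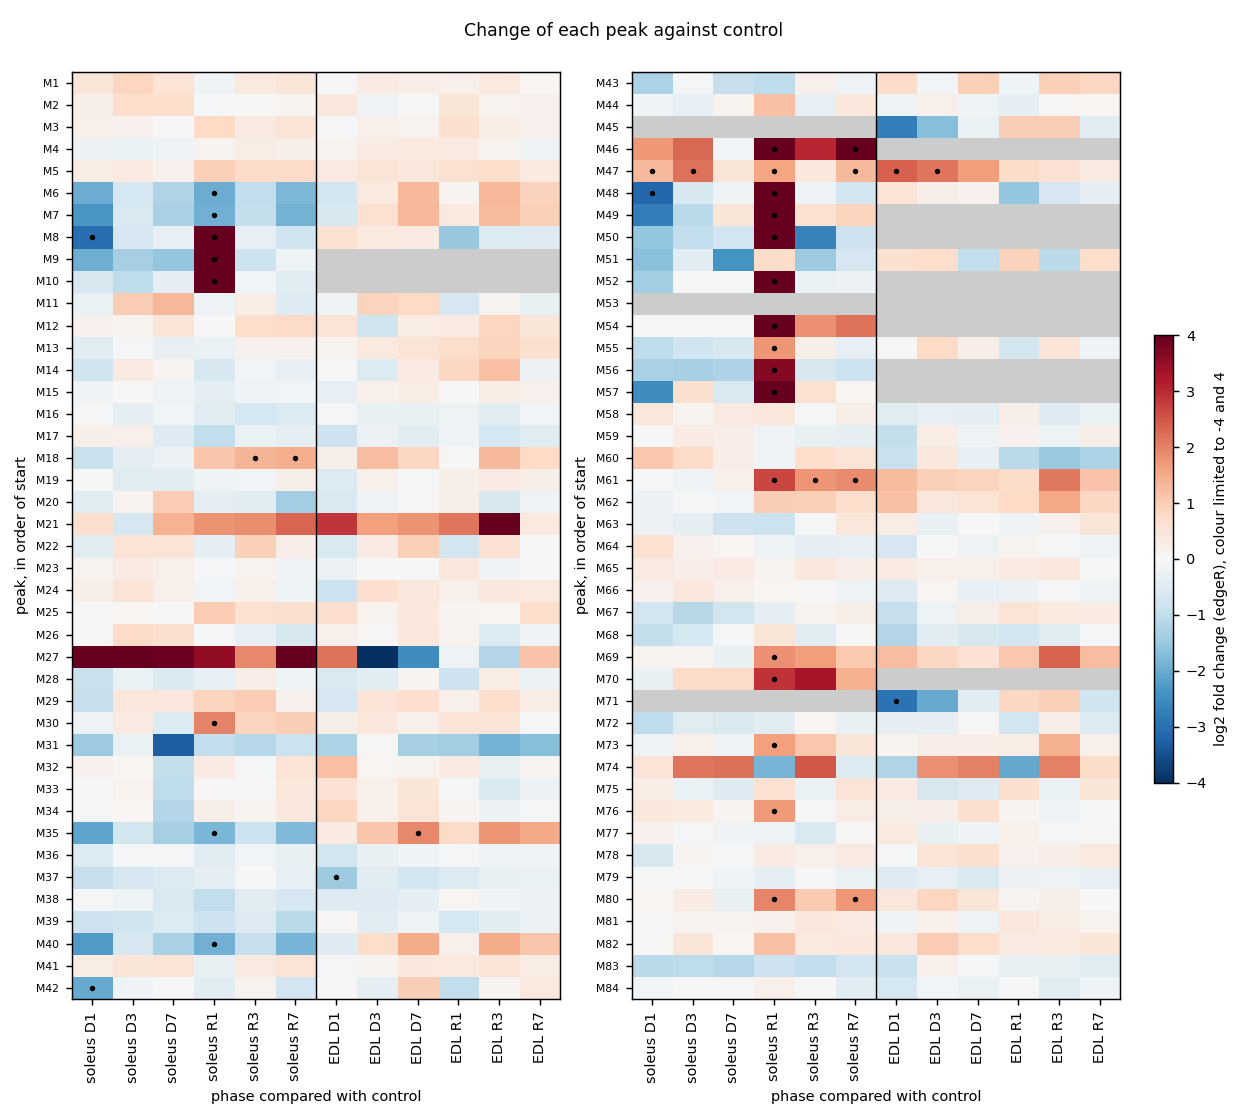
Log2 fold change against control (colour, limited to -4 and 4) of all peaks in order of start for the 6 phases of soleus and of EDL. Black dots mark called peaks, and grey fields mark peaks that the low-count filter removed in that muscle and M53, which was not tested. The dots gather in the soleus R1 column, from M46 to M57 and from M6 to M10. Of the latter, M6 and M7 were called lower and M8 to M10 higher.

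The peaks that rose in soleus at R1 fell into 2 kinds when their values were inspected. Of the 20, 13 lay in 2 short stretches, chr20:2699756-2701913 with 3 of 3 peaks and chr20:4873597-4963541, 89.9 kb long, with 10 of 11 peaks. M8 of the former and M48 of the latter are copies. The stretches were chosen after the values were seen. They include M9, M10, M49, M50, M54, M56 and M57, which passed the low-count filter through their R1 libraries. They also include M46, which passed it through its R1 and R7 libraries. Whether M9 with M49 and M10 with M50 are separate measurements was not settled.

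M8 held 56.6, 40.9 and 58.6 CPM in the soleus controls (animals U6, U7, U8) and 7456, 1131 and 2289.7 CPM at R1 (U18, U20, U21). M48 held 55.4, 40.9 and 54.3 CPM in the same controls and 7506, 1157 and 2336 CPM at R1. Every R1 library exceeded every control by a wide margin, and U18 was highest of the R1 animals. The log2 fold change was 5.90 (SE 0.76, edgeR adjusted p = 2.38e-05) for M8 and 5.96 (SE 0.74, adjusted p = 1.92e-05) for M48, and the ratio of the mean CPM was 69.7 and 73.0.

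The rise of this pair was gone by the next sampling. M8 held 39.6, 58.1 and 38.3 CPM at R3 and 14.3, 23.6 and 44.5 CPM at R7, and in both phases the libraries overlapped the controls. Within lane 4, which held all R1 libraries, the soleus R3 library of animal U4 read 39.6 CPM for M8, and the 3 EDL R1 libraries read 5.28, 1.19 and 3.97 CPM. All 3 soleus R1 libraries lay above these 4 libraries, which are of another phase or muscle.

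Unloading moved the pair the other way. At D1 M8 held 2.74, 5.68 and 7.80 CPM and M48 held 2.56, 4.36 and 7.72 CPM in soleus, below all controls. The log2 fold change was -3.03 (SE 0.67, edgeR adjusted p = 0.0203) for M8 and -3.15 (SE 0.67, adjusted p = 0.0146) for M48. At D3 M8 held 34.5, 53.05 and 16.2 CPM and at D7 27.1, 67.7 and 47.3 CPM, which overlapped the controls. The call of M8 at D1 was lost without D1 animal U24 (adjusted p = 0.0947), without U25 (0.0754), without control U6 (0.0592) or without control U8 (0.0633), with log2 fold changes from -2.75 to -3.16. Of these libraries, leaving out U24 or U25 also ended the call of M48, with adjusted p of 0.0825 and 0.0709.

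The tags of both wide peaks came from a sharp start. In soleus R1, 93.5% of the M8 tags and 91.9% of the M48 tags lay within 50 nt of the summit, against 93.1% and 93.4% in the controls. At D1, the lowest level in soleus, the shares were 86.8% and 88.2%, on 234 and 204 tags. The summit position alone held 54.3% and 52.5% of the tags at D1, 70.9% and 71.8% in the controls and 68.1% and 66.9% at R1. The plus-strand peaks inside these spans were weak, and their tags outside R1 were too few to read a course from. M10 held 0.132, 0 and 0 CPM in the soleus controls and 11.8, 1.71 and 3.07 CPM at R1, which came to 2 tags against 220 tags, a ratio of 82.3 with a 95% counting interval of 22.5 to 684. M49 held 2 tags in the controls and 244 at R1, a ratio of 91.2 with an interval of 24.99 to 758. Both were called (adjusted p = 0.00123 and 0.000941), as were M9 and M50. Outside R1 the highest soleus value of these 4 peaks was 0.596 CPM, so they passed the low-count filter through their R1 libraries and the calls are a description.

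M46 (chr20:4873597-4873818, minus strand) held 0.0658, 0 and 0.277 CPM in the soleus controls and 31.5, 17.3 and 12.2 CPM at R1. This was 3 tags against 805, a ratio of 201 with a 95% counting interval of 68.4 to 975 (log2 fold change 7.24, SE 0.84, edgeR adjusted p = 1.07e-05). Unlike M8 and M48, M46 was still above the controls at R7, at 3.84, 6.14 and 2.78 CPM (log2 fold change 5.29, SE 0.82, adjusted p = 0.00415). At R3 it held 0.979, 1.02 and 0.983 CPM, above each control, with an adjusted p of 0.0605. In EDL it held at most 1.22 CPM in any library. Outside R1 and R7 the highest soleus value of M46 was 1.05 CPM. M46 thus passed the low-count filter through its R1 and R7 libraries, and its calls are a description.

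M47 (chr20:4873916-4874041, minus strand) began 97 nt beyond M46 on the same strand and took another course. It held 3.35, 5.96 and 4.85 CPM in the soleus controls, 10.05, 10.65 and 8.74 CPM at D1, 30.4, 23.1 and 15.1 CPM at D3, and 6.71, 8.85 and 6.61 CPM at D7. At R1 it held 19.7, 17.8 and 13.8 CPM and at R7 16.1, 11.5 and 6.95 CPM. M47 was called as higher at D1, D3, R1 and R7 in soleus and at D1 and D3 in EDL, and it was the only one of the 83 peaks called in 6 comparisons with control. With the table sums as the scale its D1 calls were lost in soleus (adjusted p = 0.0895) and in EDL (0.0651).

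In EDL M47 held 1.40, 1.83 and 1.64 CPM in the controls, 3.54, 10.7 and 6.65 CPM at D1, and 12.1, 9.63 and 3.25 CPM at D3. Every library of D1 and D3 lay above every control in both muscles. The soleus log2 fold change was largest at D3, 2.18 (SE 0.27, edgeR adjusted p = 0.00127), and the EDL one at D1, 2.38 (SE 0.52, adjusted p = 0.0151). The soleus call at D1 was lost without control U6, control U8 or U25 (adjusted p from 0.0737 to 0.0914) and the one at R7 without control U6 (0.0967) or R7 animal U12 (0.0699). The EDL call at D1 was lost without control U6 (0.1055), control U8 (0.0614) or U25 (0.113), and the one at D3 without any one of the controls, U9 or U10 (0.124 to 0.163). M47 was named after its values were seen.

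A cluster of peaks further along the longer stretch rose at R1 as well. M52 (chr20:4955917-4956580, minus strand) held 2.17, 2.15 and 0.415 CPM in the soleus controls and 159, 32.7 and 59.95 CPM at R1 (log2 fold change 5.40, SE 0.79, edgeR adjusted p = 7.44e-05). At R3 it was back at 0.979, 1.78 and 1.68 CPM. M57 (chr20:4963280-4963541, plus strand) held 0.329, 0.119 and 0.138 CPM in the controls and 25.9, 6.51 and 10.3 CPM at R1 (5.74, SE 0.82, adjusted p = 5.83e-05). Its neighbour M56, which ended 356 nt before it, held 0.395, 0.596 and 0.277 CPM and rose to 11.5, 3.43 and 5.08 CPM. Outside R1, M56 and M57 held at most 0.596 and 0.6996 CPM in soleus and passed the filter in the same way.

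M54 (chr20:4959099-4959162, minus strand) had no tag in any control and none in any EDL library. At R1 it held 20.5, 8.65 and 4.96 CPM in soleus, in all 443 tags. Against the limit that 3 tags over the pooled controls would give, 0.0974 CPM, the mean at R1 was at least 116-fold higher. Outside R1, soleus held 1 tag each in U5 and U13, so M54 passed the low-count filter through its R1 libraries alone, and its call is given no weight. M55 (chr20:4959171-4959401, plus strand) began 8 nt beyond the end of M54 on the opposite strand, and was the only one of this cluster above 10 CPM in the controls. It was named after its values were seen. It held 17.5, 13.2 and 21.2 CPM in the controls, 103, 54.3 and 54.8 CPM at R1, and 5.85, 8.10 and 7.64 CPM at D1 (R1 log2 fold change 1.78, SE 0.41, adjusted p = 0.00263).

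In all 13 of the peaks that rose in these stretches, animal U18 was the highest of the R1 animals. How many of all peaks had this order was not counted.

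**Figure D3:**
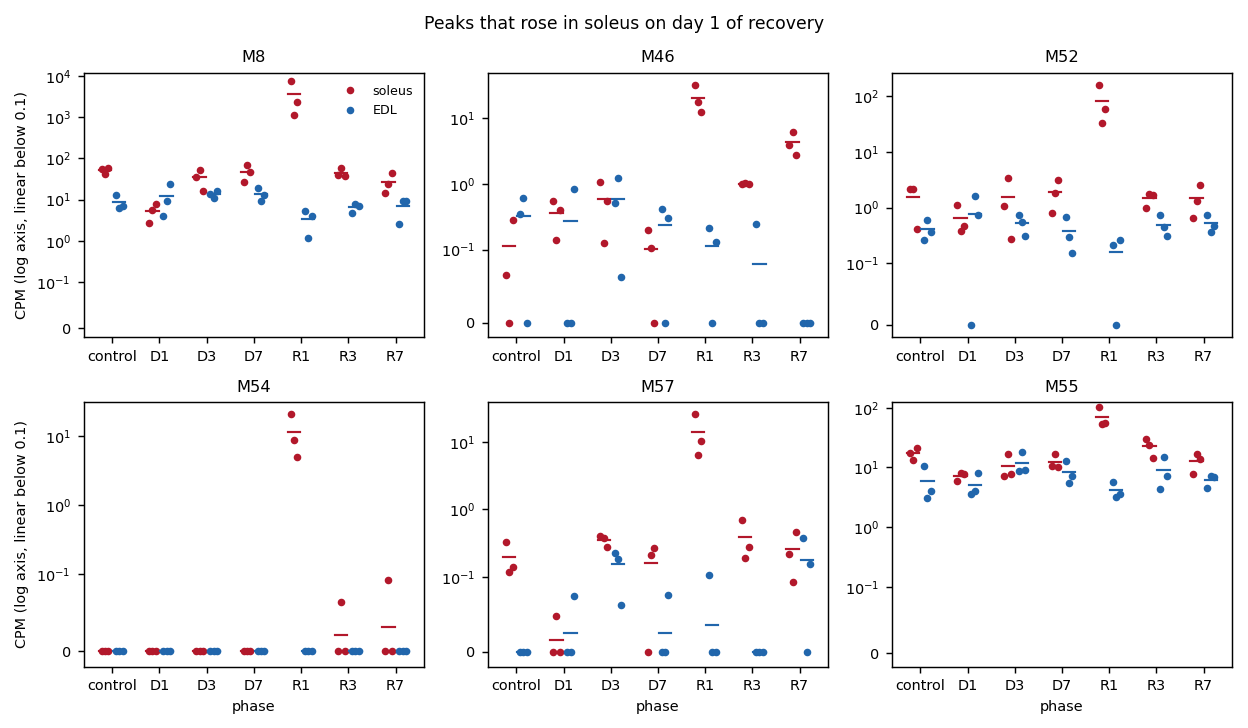
CPM of M8, M46, M52, M54, M57 and M55 in every library by phase, soleus in red and EDL in blue, with bars at the group means (n = 3). The axis is logarithmic above 0.1 CPM and linear below it. The R1 soleus libraries lie above every other library in all 6 panels.

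The remaining 7 peaks that rose in soleus at R1 lay outside the stretches, 6 of them between position 5040265 and position 5618333, with log2 fold changes from 1.63 to 2.89. They were M30, M61, M69, M70, M73, M76 and M80, named after their values were seen. M61 (chr20:5040265-5040448, plus strand) held 3.09, 5.01 and 7.89 CPM in the controls, 32.2, 49.4 and 41.0 CPM at R1, 25.3, 9.93 and 24.0 CPM at R3 and 35.8, 16.3 and 8.34 CPM at R7. All recovery libraries of M61 exceeded all controls. Its log2 fold change was 2.68 at R1 (SE 0.47, edgeR adjusted p = 0.000331), 1.77 at R3 (SE 0.46, adjusted p = 0.0482) and 1.90 at R7 (SE 0.46, adjusted p = 0.0269).

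M69 (chr20:5163147-5163295, minus strand) held 6.45, 15.4 and 7.06 CPM in the controls and 24.3, 57.5 and 45.5 CPM at R1, with 49.25, 19.7 and 34.4 CPM at R3 and 42.5, 12.004 and 9.73 CPM at R7. M80 (chr20:5618099-5618333, minus strand) held 2.96, 2.98 and 2.35 CPM in the controls, 14.8, 14.5 and 9.98 CPM at R1 and 16.02, 10.05 and 3.01 CPM at R7. It was called at R1 (1.94, SE 0.40, adjusted p = 0.00113) and at R7 (1.74, SE 0.40, adjusted p = 0.0205). The R7 call of M80 was lost without any one of the controls, U12 or U13 (adjusted p from 0.0536 to 0.115). M30 (chr20:3990743-3990898, plus strand) held 2.43, 7.75 and 3.74 CPM in the controls and 17.6, 24.8 and 25.4 CPM at R1. In all 7 peaks the R7 library of animal U19 was the lowest of that phase, and in 2 of the 7 U18 was the highest at R1. Summed over the 83 peaks, the U19 library was also the lowest at R7, with 1073 CPM beside 2185 and 1491 CPM. It carried lane 6 in its name, and the soleus libraries of U12 and U13 carried lane 5. How many of all peaks had these orders was not counted.

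M18 (chr20:3422358-3422654, plus strand), 1 of the 10 highest peaks, was raised through the recovery. It held 37.0, 44.97 and 38.1 CPM in the soleus controls, 122, 104 and 86.7 CPM at R1, 147, 73.2 and 122 CPM at R3 and 164, 113 and 57.7 CPM at R7. No recovery library overlapped the controls. The change was below the fold threshold at R1 (log2 fold change 1.099) and was called at R3 (1.36, SE 0.34, edgeR adjusted p = 0.0457) and at R7 (1.44, SE 0.34, adjusted p = 0.0243). With the table sums in place of the scaling factors M18 was called at R1 (1.38, adjusted p = 0.0104) and not at R3 (1.51, adjusted p = 0.0525). The calls of M18 and M61 at R3 did not hold without R3 animal U4, with adjusted p of 0.181 for both, nor without U16, with 0.0938 and 0.114. They were lost also without any one of the 3 controls, with adjusted p from 0.0713 to 0.228. M18 at R7 lost its call without any one of the controls, U12 or U13 (adjusted p from 0.0536 to 0.111), and M61 at R7 without control U6, control U7, U12 or U13 (0.0555 to 0.148).

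In EDL the R3 library of animal U4 was the highest of its phase in 6 of these 7 peaks. For M69 it read 57.9 CPM beside 2.05 and 9.11 CPM, and for M61 20.01 CPM beside 1.37 and 3.64 CPM. No peak of the region was called at R3 in EDL by edgeR. Summed over the 83 peaks, U4 was also the highest at R3 in EDL, with 1928 CPM beside 1090 and 1024 CPM. Its EDL library carried lane 6, and those of U5 and U16 carried lane 5.

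**Figure D4:**
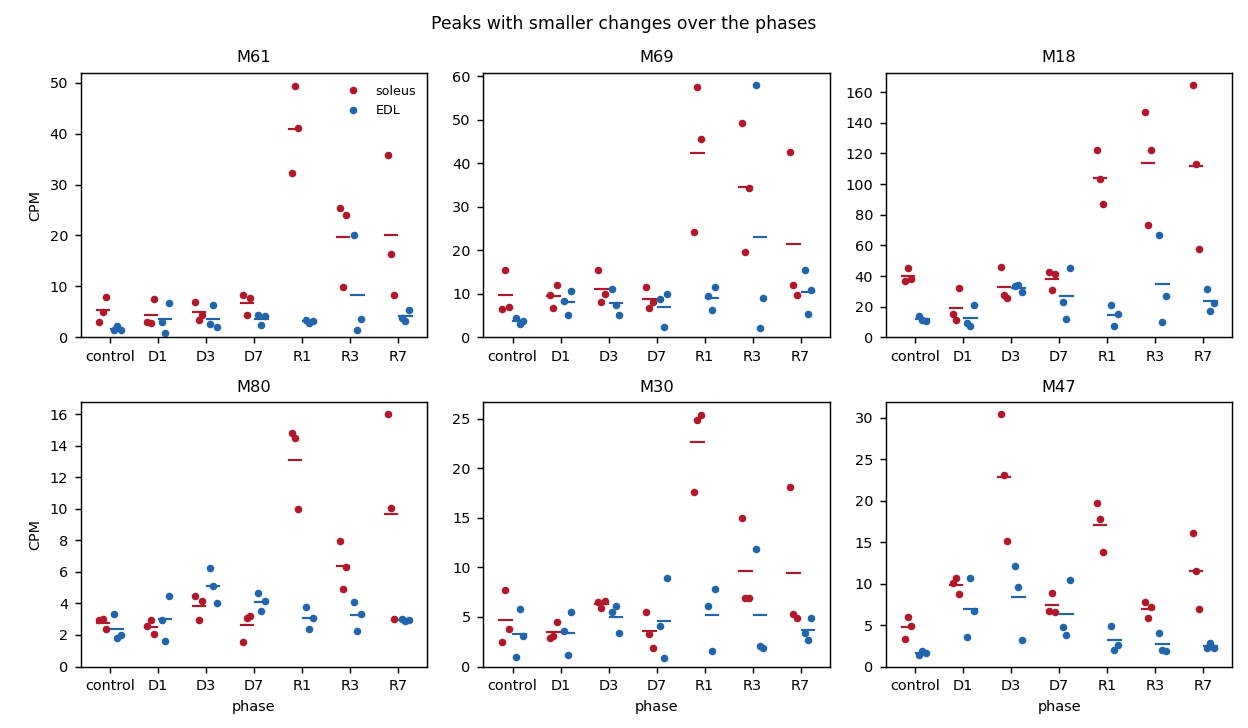
CPM of M61, M69, M18, M80, M30 and M47 in every library by phase on linear axes that start at 0, soleus in red and EDL in blue, with bars at the group means (n = 3). Soleus R1 libraries lie above the soleus controls in all panels, and M47 is also raised at D1 and D3 in both muscles.

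The 4 peaks called as lower at R1 in soleus were the copies M6, M7, M35 and M40. They were named after their values were seen. M6 (chr20:2664872-2664977, minus strand) held 9.80, 87.3 and 11.4 CPM in the controls and 8.97, 15.2 and 9.98 CPM at R1. The control of animal U7 stood apart and the others overlapped the R1 libraries. The log2 fold change of M6 was -1.99 (SE 0.68, edgeR adjusted p = 0.0281) and -0.17 without U7 (adjusted p = 0.809), and the other copies likewise lay between -0.15 and -0.31 without it. None of the 4 was called with the table sums in place of the scaling factors. With each set of copies summed to 1 peak, 19 of 76 tested peaks were higher and 1 was lower, beside 23.3% of all tested peaks called in that fit. M9, M10, M49 and M50 were not summed and count singly there.

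Among the falls at D1, M42 (chr20:4541852-4542095, minus strand) held 5.72, 8.35 and 3.88 CPM in the soleus controls and 0.548, 0.805 and 2.52 CPM at D1 (log2 fold change -2.02, SE 0.52, edgeR adjusted p = 0.0447). All 3 D1 libraries lay below all 3 controls for 18 of the 83 peaks, beside 15.5% of all peaks of the table. In EDL M37 (chr20:4370874-4371150, plus strand) held 24.0, 16.5 and 20.3 CPM in the controls and 4.72, 5.56 and 9.71 CPM at D1 (log2 fold change -1.43, SE 0.27, adjusted p = 0.00698). The call of M42 was lost without D1 animal U24 (adjusted p = 0.157), without U25 (0.213) or without any one of the controls (0.0625 to 0.151). M37 and M42 were named after their values were seen. The EDL call of M37 was not made with the table sums as the scale (adjusted p = 0.054).

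The peak called at D7 in EDL was M35, a copy of M6, which held 3.054, 3.047 and 2.56 CPM in the controls and 14.1, 3.21 and 25.9 CPM at D7 (log2 fold change 1.94, SE 0.46, edgeR adjusted p = 0.0470). The library of U2 lay close to the controls. The call was lost without any one of the controls, U1 or U3 (adjusted p from 0.122 to 0.249). The copies M6, M7 and M40 of M35 were not called at D7 in EDL. M6 held 4.10, 6.70 and 2.74 CPM in the EDL controls and 11.7, 4.67 and 25.5 CPM at D7.

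Between D7 and R1 in soleus, M11 (chr20:3176009-3176198, plus strand) fell from 17.0, 19.2 and 12.2 CPM to 8.02, 5.22 and 4.37 CPM (log2 fold change -1.54, SE 0.32, edgeR adjusted p = 0.00142). Its controls held 6.38, 5.37 and 4.98 CPM, below every D7 library. M51 (chr20:4879895-4880212, plus strand), which overlapped M48 by 71 nt on the opposite strand, held 4.60, 9.07 and 4.43 CPM in the controls. It held 0, 0.747 and 3.44 CPM at D7 and 12.6, 11.2 and 13.3 CPM at R1 (3.14, SE 0.87, adjusted p = 0.00921). Without D7 animal U2 the adjusted p of M51 was 0.0558. All R1 libraries of M51 lay above all controls, and the change against control was not called.

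Whether R1 moved soleus and EDL apart was tested by the difference of the change at R1 between the muscles over all 42 libraries. Of 82 tested peaks 9 were called (10.2% of all tested peaks), 8 with a positive difference, soleus minus EDL, and 1, M35, with a negative one. The copies M6, M7 and M40 of M35 were not called (adjusted p = 0.110, 0.0787 and 0.137). Controls and R1 libraries of both muscles carried the same lanes. The median difference was 0.05 over the tested peaks of the region and -0.15 over all tested peaks.

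The difference was 7.28 on the log2 scale for M8 (SE 0.87, edgeR adjusted p = 1.25e-06) and 7.38 for M48 (SE 0.88, adjusted p = 1.25e-06). In EDL M8 went from 12.999, 6.40 and 6.94 CPM in the controls to 5.28, 1.19 and 3.97 CPM at R1, a log2 fold change of -1.53 that was not called (adjusted p = 0.270). For M46 the difference was 8.32 (SE 1.57, adjusted p = 0.00093) and for M52 6.36 (SE 1.48, adjusted p = 0.00528). M10, M46 and M52 did not pass the low-count filter in EDL and entered this test through soleus, where they were high at R1, so their calls are no support for a difference between the muscles. M8 and M48 were called in each of the 12 fits without 1 library and in the fit with the animal as a block. The count was 5 without EDL control U6 and 4 without soleus R1 animal U18.

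M55, M80 and M44 differed by 2.39, 1.68 and 1.39. M44 (chr20:4818462-4818634, minus strand), also named after its values were seen, held 7.69, 6.56 and 8.86 CPM in the soleus controls and 26.6, 20.6 and 15.1 CPM at R1, and in EDL 7.68, 3.047 and 3.47 CPM against 7.29, 1.19 and 4.502 CPM. With the animal as a block its adjusted p was 0.0523, that of M10 was 0.135 and that of M35 0.0717, and M14 was called instead (-1.65, adjusted p = 0.0234). M44 (1.51, adjusted p = 0.145) and M35 (-2.60, 0.0897) lost their calls with the table sums as the scale, and in DESeq2 M10 did (7.89, adjusted p = 0.224).

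Averaged over the 7 phases, 11 of 82 tested peaks were called between the muscles (14% of all tested peaks). The 8 higher in soleus were M8, M20, M46, M48, M50, M52, M56 and M57, and the 3 higher in EDL were M27, M45 and M71. M46, M50, M52, M56 and M57 did not pass the low-count filter in EDL, nor M45 and M71 in soleus, so they were tested here through the muscle in which they were high and their calls are a description. M27 was named after its values were seen. The mean CPM was higher in soleus for 71 of the 83 peaks, beside 77.5% of all peaks. With the table sums as the scale 19 peaks were called, beside 15.7% of all tested peaks, and 16 of them were higher in soleus, beside 10.1%. The median log2 difference of all tested peaks then moved from 0.08 to 0.40, so the share of peaks higher in soleus depends on the scale.

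M20 (chr20:3439807-3440084, minus strand) was higher in soleus in each phase. It ran from 44.5 through a median of 113 to 441 CPM in soleus and from 3.18 through 14.7 to 31.1 CPM in EDL, and these ranges did not overlap. The log2 difference was 2.71 (SE 0.16, edgeR adjusted p = 5.46e-16). Within soleus it fell from D7 (203, 228 and 441 CPM) to R1 (156, 69.3 and 147 CPM), with a log2 fold change of -1.36 (SE 0.42, adjusted p = 0.0168). That call was lost without D7 animal U3 (-0.80, adjusted p = 0.138), the highest library, and without R1 animal U20 (-1.14, adjusted p = 0.0643). The change was below the fold threshold with the table sums as the scale (-1.23, adjusted p = 0.0260).

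The copies M45 (chr20:4862435-4862574, minus strand) and M71 (chr20:5185248-5185370, plus strand) were near absent from soleus. M45 ran from 0 through 0 to 1.27 CPM in soleus and from 0 through 3.61 to 20.7 CPM in EDL, with a log2 difference of -6.37 (SE 0.46, edgeR adjusted p = 1.82e-12). M71 differed by -5.26 (SE 0.37, adjusted p = 5.26e-14). In EDL M71 held 6.28, 2.74 and 4.93 CPM in the controls and 0, 0 and 1.05 CPM at D1, a fall by 2.95 on the log2 scale (SE 0.74, adjusted p = 0.0297), which was lost without D1 animal U24 (adjusted p = 0.0688), without U25 (0.107), without control U6 (0.112) or without control U8 (0.0880). The copy M45 was not called at D1 in EDL. It held 4.62, 1.52 and 6.58 CPM in the EDL controls and 0, 0.397 and 0.971 CPM at D1. The muscle difference of M71 had an adjusted p of 0.9999 without animal U26, whose EDL library held the only D1 tags of M71 in that muscle. At R1 the EDL library of U18 held 19.6 CPM beside 6.37 and 5.69 CPM.

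For M8 and M48 the muscles also stood apart outside R1. The soleus controls of M48 held 55.4, 40.9 and 54.3 CPM and the EDL controls 13.2, 8.23 and 6.03 CPM, whereas at D1 the soleus libraries held 2.56, 4.36 and 7.72 CPM and the EDL libraries 2.36, 8.74 and 26.15 CPM, which overlapped. M56 and M57 were near absent outside soleus at R1. M56 had a median of 0.265 CPM in soleus and 0 in EDL, and outside R1 the highest soleus library of M57 held 0.6996 CPM. M57 had an adjusted p of 0.9999 without animal U25, and M50 one of 0.9999 without U24 and of 1.0 without U5, with log2 differences of 2.37, 2.08 and 2.08, and M27 one of 0.0577 without U19.

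The rats were outbred, and both muscles were read under each animal number, so the spread between animals of the same phase could be tested against the spread between muscles within an animal. This test called 4 of the 82 peaks (1.42% of all tested peaks) by edgeR, with no fold threshold. At an unadjusted p below 0.05 it gave 32 of 82, 39.0%, beside 19.1% of all tested peaks. DESeq2 called 31 of 82 peaks. It called 1870 of all tested peaks where edgeR called 141, so the number of peaks with an animal difference depends on the tool.

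M74 (chr20:5414399-5414478, plus strand) had the smallest p of the region (edgeR adjusted p = 5.78e-05). At D1 animal U25 held 8.24 CPM in soleus and 2.38 CPM in EDL, while U24 and U26 held 0.548 and 0.394 CPM in soleus and 0 and 0.224 CPM in EDL. At R7 animal U19 held 4.40 and 7.70 CPM in soleus and EDL, and U12 and U13 at most 1.12 CPM in either. In the controls U6 held 6.18 and 4.19 CPM and the other animals at most 1.38 CPM. The soleus libraries ran from 11.5 to 17.0 CPM at D3, from 9.81 to 23.1 CPM at D7 and from 0.635 to 1.199 CPM at R1. M74 accordingly differed between R1 and D7 in soleus (log2 fold change -4.04, SE 1.03, adjusted p = 0.00536), a call kept in each of the 6 fits without 1 library. In EDL it held 0.211 to 0.796 CPM at R1 and 2.92 to 12.05 CPM at D7. Each phase held other animals, and the part of the choice of animals in this difference was not tested.

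M75 (chr20:5441793-5441940, plus strand), the next of the peaks downstream, 27.3 kb away, also differed between animals (adjusted p = 0.00841). At R3 animal U16 held 22.7 CPM in soleus and 15.2 CPM in EDL, U5 72.6 and 50.97 CPM, and U4 115 and 107 CPM. At D7 U1 held 23.1 and 18.1 CPM, below U2 with 74.1 and 53.7 CPM and U3 with 83.1 and 75.6 CPM. In 5 of the 7 phases the animal highest in M74 was the lowest in M75 in soleus, and in 4 of 7 in EDL. The animal highest in M75 was the lowest in M74 in 3 and 2 phases, and U4 at R3 and U3 at D7 were the highest in both peaks in EDL. Of the other pairs among the 6 peaks with the smallest animal p, M14 highest with M22 lowest also reached 5 phases in soleus. No such order was tested.

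M22 (chr20:3793964-3794075, minus strand) was low in 2 animals (adjusted p = 0.00531). U26 at D1 held 3.62 CPM in soleus and 3.59 CPM in EDL, beside 45.7 and 24.2 CPM in U24, and U21 at R1 held 7.09 and 3.84 CPM, beside 47.7 and 30.6 CPM in U18. M14 (chr20:3309727-3309847, minus strand) was lowest in U24, at 2.74 and 0.59 CPM, and its adjusted p of 0.0295 rose above the threshold without U24 (0.0805) and without U5, U21, U4, U18, U8 or U11 (0.0527 to 0.0690). M22 without U26 had an adjusted p of 0.0539, and 0.0547 with the table sums as the scale, and M75 without U16 one of 0.0624. M31 and M51, the next by p, were not called by edgeR (adjusted p = 0.0616 and 0.0829), although M31 was without U19, U26 or U3 (0.0269 to 0.0484). DESeq2 called both (adjusted p = 8.93e-05 and 0.000125).

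M53, set apart by the choice of peaks because it differed between animals, is described without a test. It reached at least 0.5 CPM in both muscles of 7 animals, U24, U3, U18, U20, U5, U12 and U13, and in neither muscle of the other 14. In EDL this rested on few tags, 2 in U20, 3 in U24 and 4 in U12. The soleus library of U21, below the level, held 6 tags. Of the 28 libraries of those 14 animals, 24 had no tag and the highest held 0.354 CPM. In the animals that had it, M53 ran from 0.796 to 6.63 CPM in EDL and from 4.93 to 17.0 CPM in soleus outside R1.

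At R1 the soleus libraries of U18 and U20 held 2657 and 358 CPM of M53 and that of U21 0.354 CPM, while the EDL libraries held 3.38, 0.796 and 0 CPM. The same U21 library held 2289.7 CPM of M8, 59.95 CPM of M52 and 4.96 CPM of M54, above every soleus control of these peaks. Of them M52 and M54 are neighbouring starts of M53, and for M54 U21 was the lowest of the R1 libraries. M53 lay 2150 nt beyond M52 and 346 nt before M54 on the same strand. It was the narrowest of the 84 peaks, and 99.0% of its soleus R1 tags fell on a single position. No control animal reached 0.5 CPM, so no change at R1 against control is given for M53.

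**Figure D5:**
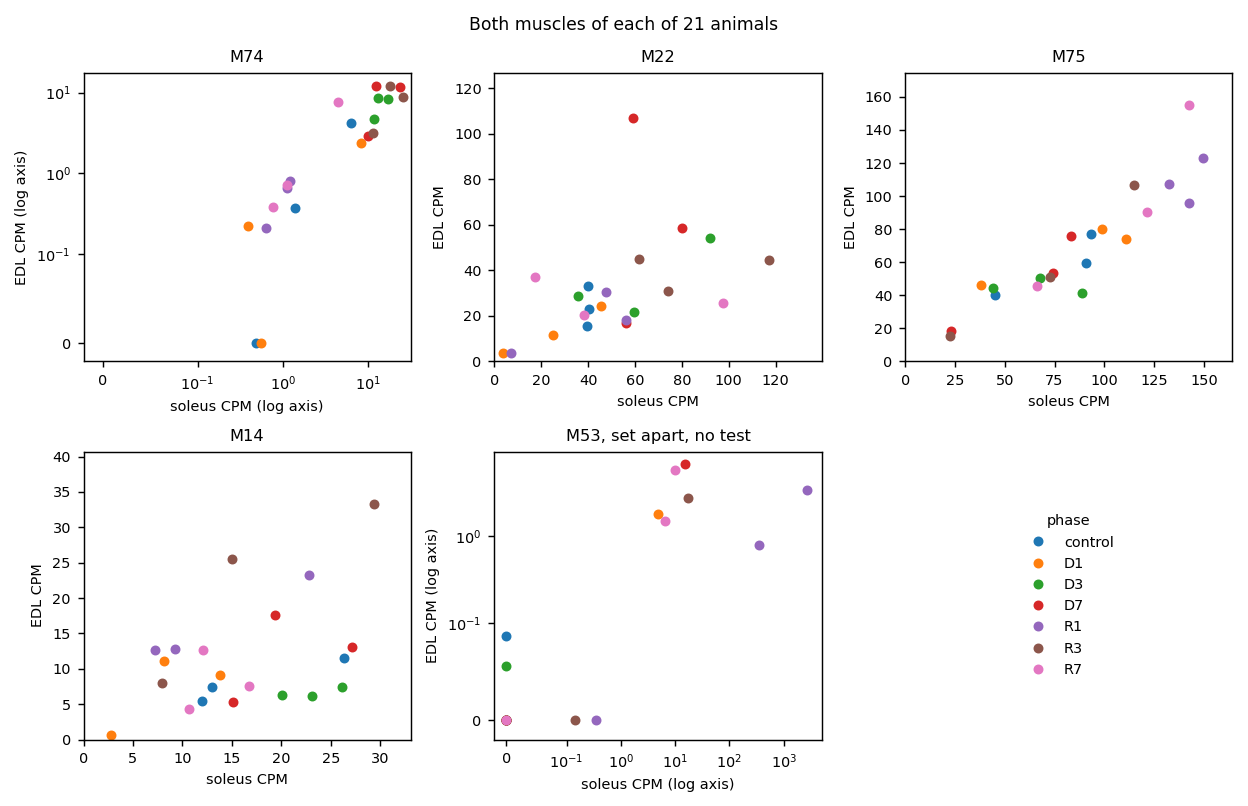
CPM in soleus (horizontal) against CPM in EDL (vertical) of the same animal for M74, M22, M75, M14 and M53, 1 point for each of 21 animals, coloured by phase. The axes of M74 and M53 are logarithmic above 0.1 CPM, the others linear from 0. M74, M22, M75 and M14 were picked by their animal p and M53 was set apart for following the animal. Agreement between the muscles in these panels therefore follows from the choice. Over the 82 tested peaks the same animal was highest in both muscles in a median of 3 of 7 phases, as over all tested peaks. In 7 animals M53 reached 0.5 CPM in both muscles.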

How the data were processed

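CAGE tags of 42 libraries (21 rats, 2 muscles) were used. Per the study's methods, the authors trimmed the reads (Trimmomatic), aligned them to Rnor_6.0 by STAR with at most 20 loci per read, aggregated tag starts (CTSS) and clustered them. The submitters' processing notes instead name BWA and HISAT2 beside Trimmomatic, so the aligner behind the deposited files is uncertain. The deposited peak table holds raw counts per peak and library. The deposited CTSS tables hold counts per position. For all 84 peaks the table count equalled the CTSS tags inside the peak. The 42 columns of normalized values were not used.

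The counts of all peaks were fitted with edgeR 4.0.16 in R 4.3.3 (filterByExpr, TMM, quasi-likelihood F test, Benjamini-Hochberg over all tested peaks), 1 fit for each muscle and 1 fit of all 42 libraries for comparisons of muscles. The animal term had 14 coefficients nested in phase. DESeq2 1.42.0 was the alternative tool. Other alternatives were table sums, RLE factors, no filter, each library or animal left out, the animal as a block and the lane as a block. A fit of 42 libraries without lane and a fit with copies summed were added after the data were seen. Scripts were tested on simulated data. Peaks were named as the 10 with the largest called change, the 10 highest in mean CPM and the 6 with the smallest animal p. Named as well were the 6 with the largest called muscle difference, and M53. Any other is marked as chosen after its values, apart from M28 and M72, which were named as copies. The peaks, lists and stretches were chosen with earlier results of these data known. Copies were peaks of at least 100 tags with a cosine of start patterns of at least 0.95 and a chi-square p of at least 0.001. Libraries of both muscles with the same animal number were taken as 1 rat, from the 21 numbers in the labels and the 21 rats of the study, which the sources do not state for each number. Over 9845 peaks, the deviations of both muscles from their group means correlated from -0.38 to 0.55 (median 0.25) and above 0.1 in 15 of 21 numbers. Replicates were separate animals, 3 per group. Intervals and floors cover counting error only.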

Additional observations from a re-analysis of the deposited data

Results flagged for a closer look

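The change from control to R1 was compared between soleus and EDL by the test of the difference itself (edgeR, all 42 libraries). The difference was called in 9 of 82 tested peaks, beside 10.2% of all tested peaks. On the log2 scale, soleus minus EDL, it was 9.07 for M10, 8.32 for M46, 7.38 for M48, 7.28 for M8, 6.36 for M52, 2.39 for M55, 1.68 for M80, 1.39 for M44 and -2.72 for M35. M8 and M48 are copies and count once. M10, M46 and M52 did not pass the low-count filter in EDL, so their calls are no support for a difference between the muscles. The value of M10 rests on 2 control tags in soleus and 2 in EDL, with no tag in EDL at R1, and in 6 of the 12 fits without 1 library it was not called. M35 was not called without soleus control U7 (-1.14, adjusted p = 0.323). M44, M55 and M80 were called in 5, 10 and 9 of the 12 fits without 1 library, and M35 in 5.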

How the results depend on the processing

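Numbers of called peaks that moved by more than 1.5 times are given here, and the cause was not tested. Brackets give the calls over all tested peaks. In soleus DESeq2 called 8 at D1 (320 of 9835), 2 at D7 (138 of 9645), 5 at R3 (403 of 9645) and 10 at R7 (714 of 9835). In EDL it called 2 at D3 (286 of 9334) and 3 at R3 (92 of 9155). For the animal term it called 31 (1870 of 9947). With the table sums as the only scale, 0 were called at R3 in soleus (120 of 9842). In EDL 1 was called at D1 (157 of 9345) and 0 at D7 (112 of 9345). Between the muscles 19 were called (1558 of 9947). With the lane as a block over 42 libraries, 0 were called at D1, D3, R1, R3 and R7 in soleus and at D1, D3 and D7 in EDL. Of all 9947 tested peaks that fit called 16 at D1 and 9 at R1 in soleus, and 5 at D1 in EDL. It called 0 of them in the other phases listed. Over 42 libraries without the lane, a fit chosen after the data were seen, 0 were called at R3 in soleus (20 of 9947). With 1 library left out, the count ran from 0 to 4 at D1, 0 to 3 at R3, 1 to 6 at R7 and 20 to 24 at R1 in soleus, from 1 to 5 at D1, 0 to 2 at D3, 0 to 1 at D7 and 0 to 2 at R3 in EDL, and from 4 to 10 for the difference between the muscles at R1. Leaving out 1 animal gave 10 to 14 calls between the muscles and 3 to 5 for the animal term. Counts over all peaks are not given for the fits that left out a library or an animal. Pairing the muscles of a rat, with the animal as a block, gave 7 against 9 calls for the difference at R1 (1116 against 1011 of 9947). Between the muscles it gave 11 against 11 (1401 against 1395 of 9947). RLE factors and no filter left each of the 155 named results on its side of the threshold. No called result reversed its direction, and 49 values of results that were not called did. With the lane as a block, soleus R1 against control was 0.026 for M16, -0.036 for M18, 0.94 for M31, -1.85 for M51, -0.55 for M75, 0.71 for M20 and 0.53 for M22. With the table sums it was 0.11 for M77, the difference at R1 was 0.0025 for M75, and soleus against EDL was 0.092 for M16, 0.34 for M75 and 0.22 for M77. With the animal as a block the difference at R1 was -0.42 for M74 and soleus against EDL 0.0017 for M75. By DESeq2 the difference at R1 was -0.22 for M74 and -0.83 for M45. With 1 library or animal left out, soleus R1 against control ran from -0.83 to 0.099 for M22 and from -0.040 to 0.36 for M81. The difference at R1 ran from -1.32 to 0.50 for M21, -0.27 to 0.66 for M22, -0.45 to 1.03 for M31, -1.04 to 0.75 for M45, -0.63 to 0.15 for M51, -0.59 to 1.51 for M71, -2.67 to 1.88 for M74 and -0.40 to 0.14 for M75. Soleus against EDL ran from -0.062 to 0.57 for M21 and from -0.068 to 0.056 for M75. The shallowest library, EDL D1 of animal U24, held 1696341 tags, and the part of depth in the counts of called peaks was not tested.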
